A study of Homo sapiens with 4 samples.

Results

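Osteopontin (SPP1) with its receptor CD44, the interleukin 15 and interleukin 7 receptor genes (IL15, IL15RA, IL2RG, IL7R) and the TAM receptor genes with their ligands (MERTK, AXL, GAS6, PROS1) were examined in human leukaemia cells recovered from mice. These 10 genes, ligands and receptors that earlier work had linked to leukaemia of the central nervous system, were chosen by symbol, and all 10 were found by identifier among the 65217 genes of the deposited count table. The cells were SEM, an established line of B-cell precursor acute lymphoblastic leukaemia with the t(4;11) fusion KMT2A-AFF1 (MLL-AF4), transplanted into immunodeficient mice aged 6 to 10 weeks whose strain is not given in the sources used here. One group held cells retrieved from brain, which the protocol describes as taken from the leptomeninges, and the other held cells retrieved from spleen. Each group had 2 libraries, and each library pooled the RNA of 5 mice, so that differences between single mice were not measured. The replicate number marks 1 of 2 separate occasions of the whole experiment, and all cells came from the same line.

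Osteopontin is a secreted glycoprotein that binds integrins and the hyaluronan receptor CD44, and it takes part in adhesion, migration and bone turnover. Interleukins 7 and 15 belong to a cytokine family whose receptors share the common gamma chain, encoded by IL2RG, and signal through JAK1, JAK3 and STAT5. Interleukin 7 drives the growth of B-cell precursors, and interleukin 15 sustains natural killer and memory T cells, usually presented on IL15RA to a receptor of IL2RB and the gamma chain. The TAM receptors TYRO3, AXL and MERTK are tyrosine kinases. Growth arrest-specific 6 (GAS6) binds all of them, and protein S (PROS1) binds TYRO3 and MERTK. These vitamin K-dependent ligands bridge their receptors to phosphatidylserine on dying cells. In the central nervous system, osteopontin and the TAM ligands are also made by host cells, whose mouse transcripts were not assigned to genes here.

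The deposited gene counts summed to between 26266136 and 36913437 per library, and a gene with 0 counts could have had up to 3, which is 0.0811 to 0.119 CPM (counts scaled to library size with TMM factors), a limit that covers counting error only. Of 17075 genes tested by edgeR's quasi-likelihood test, 279 were higher and 66 were lower in brain at an adjusted p under 0.05. Once the trend with GC content and transcript length was taken out, 432 were higher and 281 lower, and the median of all genes shifted by -0.11 on the log2 scale, from 0.04 to -0.07. Of all estimated counts, mouse transcripts took 2.24% and 1.45% in brain replicates 1 and 2, and in spleen 4.31% and 6.32%. Of the markers of B-cell precursor leukaemia, PAX5, EBF1 and DNTT had at least 4437 counts in every library, and CD22 was called higher in brain. Of the 10 markers of macrophages and microglia, 5 had fewer than 10 counts in every library, among them C1QA and C1QB with 0 counts throughout, and 5 were measured, with CSF1R (661 to 1121 counts), AIF1 (480 to 831) and TMEM119 (88 to 325) the highest. Of the 7 neural, 5 T and NK and 4 erythroid markers, 1, 1 and 0 were tested and the others had fewer than 10 counts, and the levels of these lists rested on MBP (2259 to 4879 counts) and NKG7 (1765 to 2358). Of the 7 markers of meningeal fibroblasts and endothelium, 4 were tested, and the list summed to 75.4 and 52.1 CPM in brain and 35.1 and 34.3 CPM in spleen, mostly from PECAM1. Outside the B-cell precursor list, 0 of the 11 markers tested were called by edgeR, against 2.02% of all genes tested. Of these 11 markers, 6 had an unadjusted p under 0.05, against 20.6% of all genes tested.

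Among the 10 genes, SPP1 was called higher in brain, close to the threshold (edgeR, adjusted p = 0.0408). Of the others 8 did not pass the test, 0 fell, and AXL was too low to be tested. Over all genes 1.63% were called higher in brain and 0.387% lower (2.02% in either direction). Over the 9 tested genes the median log2 fold change of brain over spleen was 0.20, against 0.04 for all genes tested, and 2 of the 9, SPP1 and IL7R, had an unadjusted p under 0.05, as had 20.6% of all genes. The CPM of the 2 groups did not overlap for SPP1, CD44 and IL7R, which were higher in both brain libraries, and for IL15RA, which was lower in both. Among all genes tested, 30.2% had no overlap with brain higher and 26.7% with brain lower (57.0% together), so that an absence of overlap between 2 libraries and 2 is common in these data. With the replicate number as a block, IL7R passed as well as SPP1, where 7.48% of all genes were called higher and 3.37% lower (10.9% together). The share of all genes called, in either direction, was 2.10% with RLE factors, 6.00% by DESeq2, 2.63% by DESeq2 with the block and 6.15% without a filter, settings in which SPP1 and IL7R were called. It was 2.01% with gene sums of the transcript files and 4.18% without the GC and length trend, where SPP1 alone was called, and 13.0% in the latter with the block, where IL7R was called too. With a stricter filter it was 1.03% and among protein-coding genes 1.54%, and 0 of the 10 were called there. Leaving out brain replicate 1 or 2 gave 2.25% and 3.09%, with 0 and 2 of the 10 called, and leaving out spleen replicate 1 or 2 gave 37.9% and 17.3%, with 2 and 1 called.

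**Figure D1:**
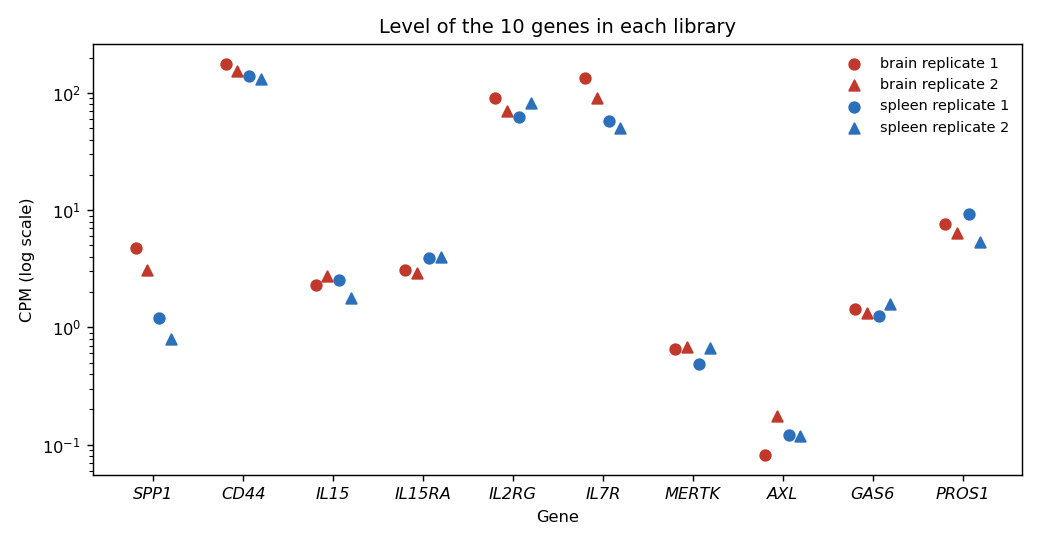
CPM (log axis) of the 10 genes in each of the 4 libraries, with brain libraries in red, spleen libraries in blue, replicate 1 as circles and replicate 2 as triangles. SPP1 and IL7R are separated by site, and CD44, IL2RG and IL7R lie between 50.7 and 178 CPM, whereas AXL lies under 0.2 CPM.

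The promoters of the pair of genes with the largest differences between sites, SPP1 and IL7R, are shown because both held the letters TGTGGT (on either strand), the core recognised by RUNX factors. Sequences are from RefSeq (GRCh38.p14), 5′ to 3′ on the strand of the gene, and cover the stretch within the 250 bases before the RefSeq start that no annotated exon of the gene overlaps. Capitals mark TGTGGT or its reverse complement and, in IL7R, the TATA letters TATAAA or their reverse complement.
SPP1 promoter, chr4:87975464-87975666, plus strand: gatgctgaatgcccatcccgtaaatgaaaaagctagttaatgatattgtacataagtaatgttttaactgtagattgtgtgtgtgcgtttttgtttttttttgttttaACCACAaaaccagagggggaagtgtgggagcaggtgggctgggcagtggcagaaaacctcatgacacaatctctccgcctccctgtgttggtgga
IL7R promoter, chr5:35856688-35856888, plus strand: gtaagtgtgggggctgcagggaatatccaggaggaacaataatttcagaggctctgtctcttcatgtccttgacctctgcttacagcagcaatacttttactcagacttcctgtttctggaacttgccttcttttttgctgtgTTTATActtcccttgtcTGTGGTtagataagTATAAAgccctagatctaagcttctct
The RUNX letters began 142 bases before the start in SPP1, on the minus strand, and 43 bases before it in IL7R, on the plus strand. Of 35116 RefSeq promoter windows of 250 bases, 11.0% held TGTGGT on either strand, and 10.7% held TATAAA. RefSeq promoters were found for 9 of the 10 genes, in 13 windows, and no entry was found for IL15. The other 11 windows held no TGTGGT. The letters of the hypoxia response core (ACGTG or GCGTG), of AP-1 (TGANTCA) and of STAT (TTCNNNGAA) were searched too and were not found in the windows of SPP1 and IL7R. This says only that these letters are not in these windows, and the motifs were picked after the values had been seen.

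SPP1 (chromosome 4, 87975667 to 87983532, GRCh38) had 175 and 105 counts in brain replicates 1 and 2 and 40 and 20 counts in spleen replicates 1 and 2. These are 4.73 and 3.07 CPM in brain and 1.21 and 0.792 CPM in spleen. Both brain libraries were higher than both spleen libraries, and at each site the library of the first occasion was the higher of the pair. The mean was 3.90 ± 1.17 CPM in brain and 1.00 ± 0.298 CPM in spleen (SD, n = 2 here and below), and the log2 fold change was 1.94 ± 0.36 (SE; edgeR, adjusted p = 0.0408). Within the first occasion the CPM in brain was 3.90-fold that in spleen, and within the second it was 3.88-fold. With the replicate block the log2 fold change was 1.96, and with the GC and length trend taken out it was 1.90, or 1.98 relative to the median of all genes (adjusted p = 0.0167).

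The call of SPP1 ended with a stricter filter on low counts (adjusted p = 0.0704), in a fit of protein-coding genes (adjusted p = 0.0577) and without brain replicate 1 (log2 fold change 1.60, adjusted p = 0.0535), and fold changes over all alternatives were between 1.60 and 2.25. A long non-coding RNA gene on the opposite strand spans SPP1, with an exon over the first exon of SPP1, and was not analysed here. Whether strand was used in counting is not given in the sources used here. Macrophages are known as a source of osteopontin, and those of the host are mouse cells. How far reads of mouse transcripts were counted as human was not tested. All human cells transplanted were of the SEM line, so that counts of human marker genes are no count of host cells. The human genes of the macrophage list summed to 58.9 and 41.5 CPM in brain and to 66.7 and 60.01 CPM in spleen. C1QA and C1QB had 0 counts, and CD14, a monocyte marker, had between 3 and 9. Of the 5 macrophage markers tested, ITGAM and CX3CR1 had positive log2 fold changes (0.26 and 0.12). CSF1R, AIF1 and TMEM119 had negative ones (-0.05, -0.45 and -1.28). With the block TMEM119 was called lower in brain (edgeR, log2 fold change -1.39, adjusted p = 4.46e-05). The list of meningeal fibroblasts and endothelium summed higher in brain, mostly from PECAM1, and its single genes went in both directions. Of these, COL1A1, a collagen gene, had 71 and 51 counts in brain and 12 and 21 in spleen (edgeR, log2 fold change 1.55 ± 0.45, adjusted p = 0.118; with the block adjusted p = 0.00667). PECAM1, which B-lineage cells also express, had a log2 fold change of 0.95 ± 0.21 (edgeR, adjusted p = 0.0672; with the block adjusted p = 0.000913). VWF, an endothelial gene, had -2.46 ± 0.51 (edgeR, adjusted p = 0.0576, and with the block 0.00415). CDH5, also endothelial, had -1.14 ± 0.997 (edgeR, adjusted p = 0.572). LUM had 0 counts, DCN at most 2 and COL1A2 between 2 and 8. The share of mouse counts was lower in brain, where SPP1 was higher. The part of these markers and of mouse counts in the result for SPP1 was not tested. In pooled cells, more SPP1 RNA per cell and a larger share of SPP1-expressing cells cannot be told apart.

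SPP1 counts were spread over 7 of its 11 measured transcripts, and most fell on SPP1-203, the full form with 7 exons that encodes 314 amino acids. SPP1-203 had estimated counts of 122 and 81.1 in brain and of 21.1 and 20 in spleen, which were 70.0% and 77.2% of the gene in brain and 54.1% and 100% in spleen. A shorter coding form with 6 exons, SPP1-201 (300 amino acids), had 30.3, 21.0 and 7.60 estimated counts in brain replicates 1 and 2 and spleen replicate 1. In spleen replicate 2 SPP1-201 was listed at 0, a library with only 20 counts of the gene. Brain was thus above spleen for the full form in every pair of libraries, while the shares of the shorter forms rest on few counts.

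The genes whose levels across the 4 libraries were nearest to those of SPP1, by Euclidean distance between deviations of log2 CPM from the 4-library mean, were TLCD5 (distance 0.208), PCDH9 (0.209), a protocadherin gene, and CD274 (0.225), which encodes PD-L1. PCDH9 had 14.2 and 11.0 CPM in brain and 4.52 and 2.81 CPM in spleen, a log2 fold change of 1.77 ± 0.28 (edgeR, adjusted p = 0.0274). CD274 had 4 and 2 counts in the spleen libraries and did not pass the test (edgeR, adjusted p = 0.0856). The distance over 4 libraries is a description, with no test.

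CD44 (chromosome 11, 35138882 to 35232402), the hyaluronan and osteopontin receptor, had 178 and 153 CPM in brain and 141 and 133 CPM in spleen. Both brain libraries lay above both spleen libraries, and the gap between the groups was smaller than that between the brain libraries. The mean was 166 ± 17.6 CPM in brain and 137 ± 5.46 CPM in spleen, and the log2 fold change of 0.28 ± 0.14 did not pass (edgeR, adjusted p = 0.314). With the GC and length trend taken out it was 0.02, or 0.09 relative to the median of all genes. Without spleen replicate 1 it was 0.27 and passed (adjusted p = 0.0294), in a fit in which 37.9% of all genes were called. CD44 was thus high at both sites, and a difference between them was not established.

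CD44 has a standard form and longer variants made by including variable exons. Most counts fell on CD44-201, a form with 9 exons and 361 amino acids that lacks the 9 variable exons of the longest transcript, CD44-208. CD44-201 took 76.4% and 78.8% of the gene's estimated counts in brain and 86.7% and 84.7% in spleen. Transcripts with any of the variable exons took 6.84% and 6.58% in brain and 4.42% and 4.08% in spleen, corresponding to 450 and 344 estimated counts in brain and 205 and 137 in spleen. CD44-207, annotated as a target of nonsense-mediated decay, took 13.1% and 11.2% in brain, against 5.57% and 6.22% in spleen. The shares of CD44-201 were lower in both brain libraries, and those of CD44-207 and of the transcripts with variable exons were higher. Not all other forms went this way, as CD44-218 had a higher share in both spleen libraries. These are estimates divided among 38 overlapping transcripts of the same gene, given without a test.

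**Figure D2:**
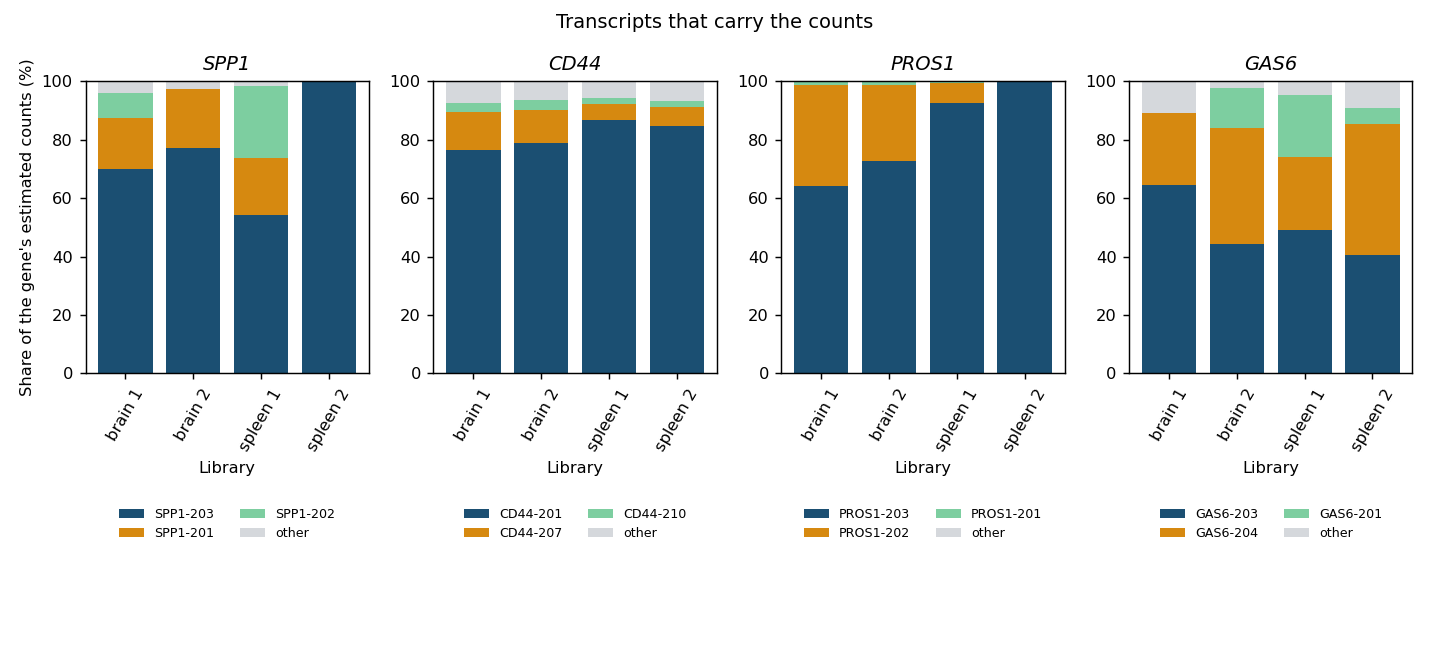
Share (percent, bars from 0 to 100) of each gene's estimated counts on its 3 leading transcripts and on all others, per library. SPP1-203 and CD44-201 lead in every library, PROS1-202 is at 34.3% and 25.9% in brain and at 6.56% and 0% in spleen, and GAS6-203 and GAS6-204, both annotated as retained introns, lead GAS6.

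Of 9 integrin genes whose products form osteopontin receptors, 7 were tested, 0 rose and 0 fell, with a median log2 fold change of 0.06. ITGA4, the alpha chain of VLA-4, had 292 ± 33.6 CPM in brain and 196 ± 141 CPM in spleen, where spleen replicate 1 had 296 CPM and spleen replicate 2 had 96.6 CPM. The difference in ITGA4 was smaller than the spread within spleen (log2 fold change 0.57 ± 0.63, edgeR adjusted p = 0.670, and with the block 0.78, adjusted p = 0.00321). Its log2 ratios within the occasions were 0.09 and 1.47. A small adjusted p with the block thus need not mean that the occasions agree. ITGB1, its usual beta chain partner, had 201 ± 12.1 CPM in brain and 220 ± 29.2 CPM in spleen (log2 fold change -0.13 ± 0.15). ITGA8 had a log2 fold change of -2.06 ± 0.62 (edgeR, adjusted p = 0.134; with the block adjusted p = 0.00595) from 12 and 8 counts in brain and 58 and 14 in spleen. ITGB3, the beta chain of the vitronectin receptor, had 0 counts in all 4 libraries.

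Of the other osteopontin family genes IBSP, DMP1, MEPE and DSPP, each had 0 counts in all libraries. MMP9, a protease that can cleave osteopontin, had 178 and 34 counts in brain and 204 and 79 in spleen, so that replicate 2 was the lower at both sites, and did not pass (edgeR, log2 fold change -0.68 ± 0.89; with the block -0.92, adjusted p = 0.0396). Of 13 genes of hyaluronan synthesis, CD44 linkage to the cytoskeleton, shedding and splicing, 9 were tested and 0 passed, with a median log2 fold change of 0.17. Moesin (MSN) and ezrin (EZR), which tie CD44 to actin, were abundant at both sites, with log2 fold changes of -0.07 ± 0.14 and 0.04 ± 0.14. The splicing regulators ESRP1 and ESRP2, known for promoting variable exons of CD44, had at most 7 counts in any library.

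IL7R (chromosome 5, 35852695 to 35879603), the specific chain of the interleukin 7 receptor, had 134 and 90.4 CPM in brain and 57.4 and 50.7 CPM in spleen. Both brain libraries were above both spleen libraries, and brain replicate 1 stood highest. The mean was 112 ± 30.9 CPM in brain and 54.1 ± 4.80 CPM in spleen, and the log2 fold change of 1.05 ± 0.21 just missed the threshold (edgeR, adjusted p = 0.0553). Within the first occasion brain was 2.33-fold spleen, and within the second 1.78-fold. The call was made with the replicate block (log2 fold change 1.03, adjusted p = 2.8e-05), by DESeq2 (adjusted p = 0.00229) and, in edgeR, with the RLE factors in place of TMM (adjusted p = 0.0465). With the GC and length trend taken out the fold change was 0.74, or 0.81 relative to the median of all genes (adjusted p = 0.0726), and without brain replicate 1 it was also 0.74 (adjusted p = 0.355).

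The main form of IL7R, IL7R-201 with 8 exons and 459 amino acids, took between 92.3% and 97.3% of the gene's estimated counts in every library. IL7R-204, a form of 6 exons and 261 amino acids, had 176 and 155 estimated counts in brain and 25.7 and 31.5 in spleen. IL7R-204 was thus 3.55% and 5.03% of the gene in brain and 1.36% and 2.46% in spleen. The near-threshold difference between sites in the gene was carried by the main form.

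IL2RG (chromosome X, 71107404 to 71112108), the common gamma chain, had 90.2 and 70.5 CPM in brain and 62.2 and 82.8 CPM in spleen. The groups overlapped, and the log2 fold change of 0.15 ± 0.20 did not pass (edgeR, adjusted p = 0.700). Its direction turned without brain replicate 1 (-0.04) and without spleen replicate 1 (-0.09). IL2RG was well expressed at both sites with no stable direction.

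IL15 (chromosome 4, 141636583 to 141733987), the cytokine itself, was low, with 85 and 93 counts in brain and 83 and 45 counts in spleen. Its level was 2.30 and 2.72 CPM in brain and 2.52 and 1.78 CPM in spleen, and the groups overlapped. The log2 fold change of 0.22 ± 0.30 did not pass (edgeR, adjusted p = 0.719). Brain was the lower site in the first occasion (log2 ratio -0.13) and the higher in the second (0.61).

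IL15RA (chromosome 10, 5943639 to 5978187), the chain that presents interleukin 15, had 114 and 100 counts in brain and 128 and 100 counts in spleen. On the CPM scale these were 3.08 and 2.93 in brain and 3.88 and 3.96 in spleen. Both brain libraries were lower than both spleen libraries, and the log2 fold change of -0.38 ± 0.24 did not pass (edgeR, adjusted p = 0.405). It was between -0.45 and -0.30 over all alternatives and passed in none.

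Interleukin 15 signals through IL2RB, which was close to absent, with 6 and 1 counts in brain and 7 and 2 in spleen. IL2RA, the alpha chain of the high-affinity interleukin 2 receptor, had 0 counts in both brain libraries and 2 and 1 in spleen. Of 6 other receptor chains of the family, 3 were tested and 0 passed. IL21R had 83.8 ± 5.45 CPM in brain and 83.5 ± 15.1 CPM in spleen (log2 fold change 0.01 ± 0.17), and IL9R had 29.6 ± 6.36 and 21.9 ± 0.826 CPM (0.44 ± 0.19; edgeR, adjusted p = 0.251). CRLF2, the partner of IL7R in the TSLP receptor, had between 2 and 4 counts. Of the cytokines, IL2, IL9 and IL21 had 0 counts in all libraries, IL4 had 1 count in 1 library, and IL7 (1.07 ± 0.0991 CPM in brain, 1.02 ± 0.610 in spleen) and TSLP (0.754 ± 0.196 and 0.545 ± 0.0437) were low without a called difference.

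Downstream of these receptors, 0 of the 6 JAK and STAT genes passed, although the fold changes of all 6 were positive, at a log2 median of 0.26 against 0.04 for all genes. JAK1 had 201 ± 6.21 CPM in brain and 157 ± 4.89 CPM in spleen (log2 fold change 0.35 ± 0.13; edgeR, adjusted p = 0.188). STAT6, which serves interleukin 4, had 239 ± 15.2 and 212 ± 21.1 CPM (0.18 ± 0.14). Of 8 genes that such cytokines are known to induce, 0 passed, with a median of 0.08. SOCS2, a feedback inhibitor, had 3.43 ± 1.00 CPM in brain and 7.53 ± 0.8005 in spleen. Its log2 fold change was -1.13 ± 0.27 (edgeR, adjusted p = 0.0813), and with the block it was called lower (adjusted p = 0.00185). The survival genes BCL2 and MCL1 had log2 fold changes of 0.31 ± 0.16 and -0.09 ± 0.15.

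**Figure D3:**
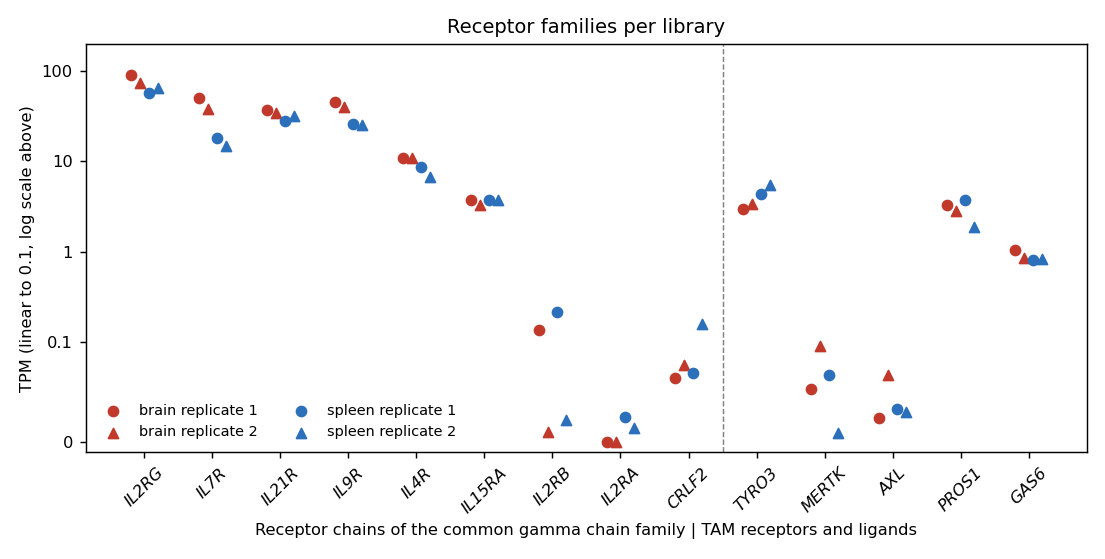
TPM (linear to 0.1, log scale above) per library of the receptor chains of the common gamma chain family and, right of the dashed line, of the TAM receptors and ligands, with brain in red and spleen in blue. IL2RG, IL7R, IL21R, IL9R and IL4R exceed 6 TPM in every library, whereas IL2RB, IL2RA, CRLF2, MERTK and AXL stay under 0.3 TPM.

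The TAM receptors MERTK and AXL were close to absent at both sites. AXL (chromosome 19, 41219223 to 41261766) had 3 and 6 counts in brain and 4 and 3 counts in spleen, at most 0.176 CPM, and did not pass the filter on low counts, so that no difference was detectable at this depth. MERTK (chromosome 2, 111898607 to 112029561) had 24 and 23 counts in brain and 16 and 17 in spleen. These were 0.649 and 0.673 CPM in brain and 0.485 and 0.673 CPM in spleen, which overlapped, and the log2 fold change of 0.20 ± 0.41 did not pass (edgeR, adjusted p = 0.809).

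At the level of transcripts, few counts of MERTK fell on forms that the annotation assigns to it. MERTK-201, the form with 19 exons and 999 amino acids, was listed at 0 in all 4 libraries. The transcripts that GENCODE 44 assigns to MERTK summed to 0.910 and 6.63 estimated counts in brain and 5.05 and 0.580 in spleen, nearly all on a form annotated as a target of nonsense-mediated decay except in brain replicate 1, where they lay on the short coding form MERTK-204. The rest of the gene's counts, 23.1 and 16.4 in brain and 11.0 and 16.4 in spleen, equalled within 1 count those of ENST00000421804, the only transcript without an entry in GENCODE 44 for which this held. The gene to which that transcript was assigned is not given in the sources used here, so that the count of MERTK is uncertain as a measure of the receptor.

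The third TAM receptor gene, TYRO3, was the only one of the family with a clear level, with 228 and 268 counts in brain and 268 and 271 in spleen. It had 7.01 ± 1.19 CPM in brain and 9.43 ± 1.84 CPM in spleen, and its log2 fold change of -0.43 ± 0.24 did not pass (edgeR, adjusted p = 0.345). LGALS3, which encodes galectin-3, another TAM ligand, had between 10 and 20 counts, and TUB had 0.

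Of the ligands, PROS1 (chromosome 3, 93873051 to 93980003) had 282 and 216 counts in brain and 307 and 136 counts in spleen. Its level was 7.62 and 6.32 CPM in brain and 9.31 and 5.38 CPM in spleen, so that the brain libraries lay between the spleen libraries. The log2 fold change was -0.08 ± 0.29 (edgeR, adjusted p = 0.903), with the direction changing between alternatives (-0.40 to 0.32). PROS2P, a pseudogene copy of PROS1, had 0 counts in all libraries.

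PROS1 counts were divided between a pair of coding forms in shares that differed by site. PROS1-202 (676 amino acids) had 96.9 and 56.0 estimated counts in brain, 20.2 in spleen replicate 1 and was listed at 0 in spleen replicate 2. PROS1-203 (661 amino acids) had 181 and 157 in brain, against 285 and 136 in spleen. PROS1-202 was thus 34.3% and 25.9% of the gene in brain and 6.56% and 0% in spleen, given without a test, and its share was higher in both brain libraries.

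GAS6 (chromosome 13, 113820549 to 113864076) was low at both sites, with 53 and 45 counts in brain and 41 and 40 counts in spleen. Its level was 1.43 and 1.32 CPM in brain and 1.24 and 1.58 CPM in spleen, with overlap, and the log2 fold change was -0.03 ± 0.32 (edgeR, adjusted p = 0.967). The coding form GAS6-201 had 0, 6.33, 8.64 and 2.18 estimated counts in brain replicates 1 and 2 and spleen replicates 1 and 2. Transcripts annotated as retained introns held 94.3% and 83.8% of the gene's estimated counts in brain and 74.0% and 92.0% in spleen. GAS6-AS1, an RNA on the opposite strand that overlaps part of GAS6, had 250 and 196 counts in brain and 193 and 114 in spleen, more than GAS6 itself in every library. Without knowledge of the strand setting, reads from stretches that the 2 genes share cannot be told apart.

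Of 5 genes for gamma-carboxylation of the TAM ligands and for phosphatidylserine exposure, 0 passed, with a median log2 fold change of -0.08. VKORC1L1, a vitamin K epoxide reductase, had a log2 fold change of -0.02 ± 0.15, and ANO6, a scramblase, one of 0.25 ± 0.14. Of 6 adaptor genes 0 passed, with a median of -0.10. GRB2 had 208 ± 6.71 CPM in brain and 250 ± 31.4 CPM in spleen (log2 fold change -0.26 ± 0.14), and PTPN11, which encodes the phosphatase SHP2, had 241 ± 2.79 and 225 ± 21.6 CPM (0.10 ± 0.14). PIK3R1, a regulatory subunit of PI3 kinase, did not pass, at a log2 fold change of 0.61 ± 0.25 (edgeR, adjusted p = 0.238) and was called with the block (adjusted p = 0.0145), with 112 CPM in spleen replicate 1 and 67.2 in spleen replicate 2. ITGA8, SOCS2 and PIK3R1 were named after their values were seen, because their calls changed with the block.

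In all, the related lists held 72 genes, of which 49 were tested. By edgeR's test 0 of the 49 rose and 0 fell, 6 had an unadjusted p under 0.05 (over all genes, 20.6%), and with the block 2 rose and 3 fell, a share of the 49 close to the 10.9% of all genes called in that fit. These were ITGA4 and PIK3R1, and ITGA8, MMP9 and SOCS2.

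**Figure D4:**
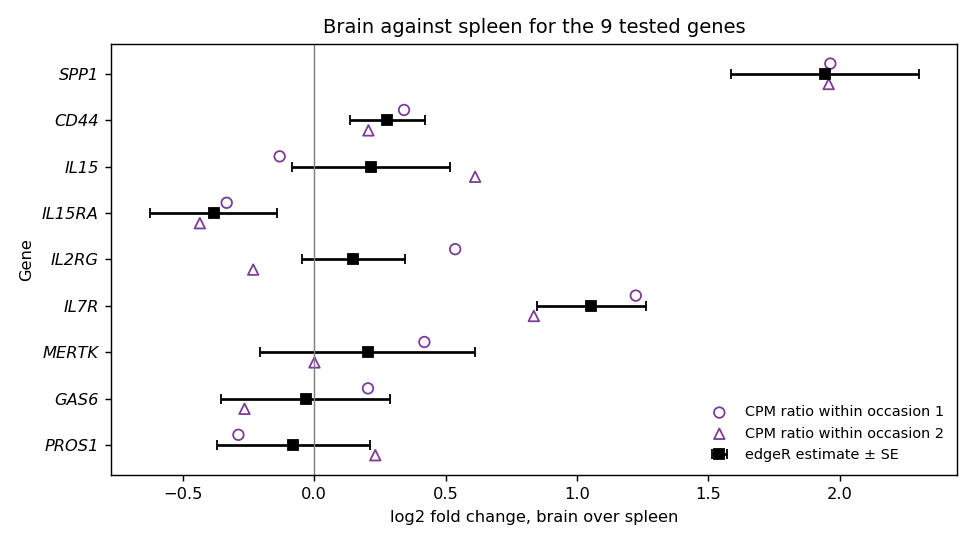
Log2 fold change of brain over spleen for the 9 tested genes by edgeR (black squares, bars are SE) and log2 ratio of CPM within each occasion (open symbols). For SPP1 the ratios of the occasions, 1.96 and 1.96, coincide, whereas those of IL15, IL2RG, GAS6 and PROS1 lie on both sides of 0. The ratios are drawn without an error, and those of SPP1 rest on 40 and 20 counts in spleen.

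Per transcript length, levels are given as TPM over all transcripts that GENCODE 44 assigns to a gene. In brain CD44 (81.9 ± 9.64 TPM) and IL2RG (81.6 ± 12.1) were highest and overlapped, and IL7R followed (43.97 ± 8.57). SPP1 had 4.91 ± 0.444 TPM in brain, IL15RA 3.51 ± 0.270, PROS1 3.06 ± 0.301 and IL15 2.38 ± 0.0327. GAS6 had 0.950 ± 0.129 TPM in brain, and MERTK and AXL had under 0.1 TPM in every library. For MERTK this leaves out the transcript without an entry in GENCODE 44, which equalled most of the gene's counts. In spleen IL2RG (60.9 ± 5.87) and CD44 (54.0 ± 3.95) overlapped, and IL7R had 16.5 ± 2.27 TPM. SPP1 changed its place most, from the fourth of the 10 genes in brain to the seventh in spleen, with 0.939 ± 0.390 TPM, where it overlapped GAS6 (0.823 ± 0.00859). IL15RA (3.76 ± 0.0232), PROS1 (2.82 ± 1.35) and IL15 (1.77 ± 0.529) stood above it, and PROS1 overlapped both of its neighbours. TPM was scaled over human and mouse transcripts together and not by TMM, so that the orders are read within a site.

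**Figure D5:**
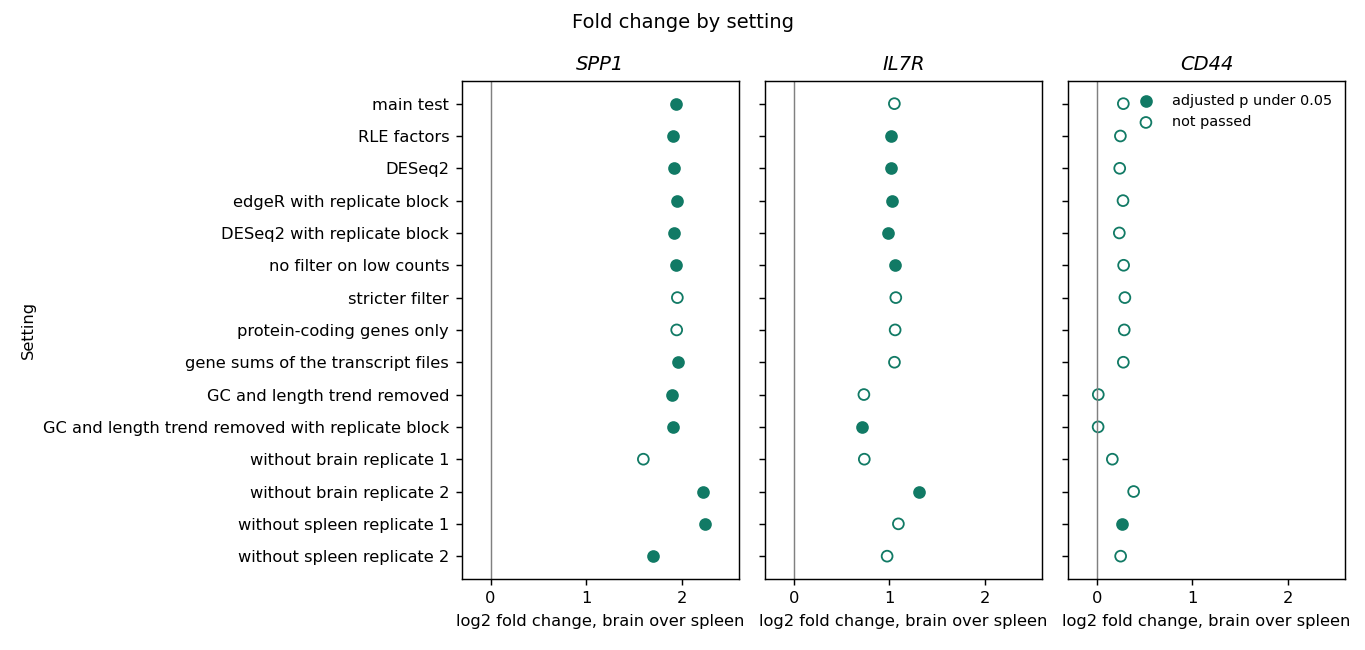
Log2 fold change of SPP1, IL7R and CD44 under the main test and 14 alternatives, with filled circles where the adjusted p was under 0.05. SPP1 ranges from 1.60 to 2.25 and IL7R from 0.71 to 1.31 on the positive side throughout, and CD44 falls to 0.01 and 0.02 in the 2 fits with the GC and length trend taken out.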

How the data were processed

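RNA sequencing libraries of SEM cells from brain (2) and spleen (2) were stranded and poly(A)-selected, per the labels' protocols. The tools kallisto 0.42.4, cutadapt 1.5, bcl2fastq 1.8.4 and DESeq2 and the builds GRCh38 and GRCm38 are named, per the submitters' processing notes. Neither settings nor the release of the annotation nor any use of strand is stated in the sources used here. The authors deposited gene counts, which are estimated counts rounded to whole numbers, and per transcript an estimated count and a TPM over human and mouse together. In both gene tables, 2 columns in all match no sample and were not used, nor was the deposited table of regularised log values.

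Genes were matched to GENCODE 44 (56322 of 65217). Brain was compared with spleen by edgeR 4.0.16 (R 4.3.3; TMM factors, filterByExpr, robust quasi-likelihood test) with Benjamini-Hochberg adjustment over 17075 genes and a threshold of 0.05. The test was tried on simulated data, where more calls were false than the threshold allows. There were 32 false calls, beside 39 and 105 right ones at absolute log2 changes of 1 and 2. Calls close to the threshold, that of SPP1 among them, thus carry less weight. The SE is the one implied by the test statistic. Gene TPM is the sum over the transcripts that GENCODE 44 assigns to the gene. The scripts used Python 3.11.15. Named genes were the 10 members, of each related list the called genes (up to 4) or else the 2 tested of highest CPM, and the 3 genes nearest to SPP1; other list genes and markers, mostly those at or near 0 counts or called only with the block, were named after their values were seen. Members and lists were chosen with earlier results of these data known. Alternatives were other factors, DESeq2 1.42.0, a replicate block, other filters, transcript sums, removal of the GC and length trend (splines with 5 degrees of freedom) and leaving out each library. The block takes a further coefficient from 4 libraries, so that few residual degrees of freedom remain. Its adjusted p values therefore rest largely on variance estimates shared across genes. The replicate number stands for 1 of 2 occasions, per the labels' treatment protocol, and was read as pairing brain with spleen; the deviations from the group mean of 2 libraries with 1 number correlated at 0.0269 (Pearson) and -0.0149 (Spearman) over genes, which are no independent replicates. The smallest p of an exact permutation test of 2 against 2 is 0.333, so none is reported.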

Additional observations from a re-analysis of the deposited data

How the results depend on the processing

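The number of genes called, 345 in the main test, was 924 by DESeq2, 1853 with the replicate block, 2123 without a filter on low counts, 137 with the stricter filter (at least 1 CPM in at least 3 libraries), 201 among protein-coding genes, 713 with the GC and length trend taken out and 2217 with that and the block. Leaving out 1 library gave between 404 and 6807, on the assumption that the single remaining library varies as the other group does. Of the 10 genes, 1 was called in the main test. The number was 2 (SPP1 and IL7R) with RLE factors, by DESeq2, with the replicate block in edgeR and in DESeq2, without a filter and without the GC and length trend and with the block. It was 0 with the stricter filter and among protein-coding genes, where fewer genes were tested, and between 0 and 2 when 1 library was left out: 0 without brain replicate 1, and 2 without brain replicate 2 (SPP1 and IL7R) and without spleen replicate 1 (SPP1 and CD44). The replicate block changed no other call among the 10 genes. When 1 library was left out, the log2 fold change ranged from -0.095 to 0.38 for IL2RG, from -0.076 to 0.46 for MERTK, from -0.25 to 0.16 for GAS6 and from -0.40 to 0.32 for PROS1, so that these directions are not fixed. SPP1, CD44, IL15RA and IL7R kept their direction in all 14 alternatives. IL15 stayed positive but ranged from 0.0076 without spleen replicate 2, below the median of all genes there, to 0.44 without spleen replicate 1. The causes of these changes were not tested. AXL had an adjusted p only without a filter, and MERTK could not be tested with the stricter filter or with transcript sums. Depth limits AXL, MERTK and GAS6, each with fewer than 60 counts in every library. It also limits SPP1 in spleen, where its 40 and 20 counts were no more than the 41 and 40 of GAS6.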

Other observations

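Some transcripts of the 10 genes were at or near 0 in libraries of one kind. CD44-218, a short coding form of 2 exons, was listed at 4e-06 estimated counts in brain replicate 1 and at 0 in brain replicate 2 and had 85.3 and 105 estimated counts in spleen, against 4019 and 2844 of the leading form there. IL15RA-218, which has no defined coding sequence, had 31.1 estimated counts in brain replicate 2 and 31.4 in spleen replicate 2 and was listed at 0 in both libraries of the first occasion. IL7R-209, annotated as a target of nonsense-mediated decay, had 17.8 and 23.0 estimated counts in brain and was listed at 0 in both spleen libraries. A listed 0 can be a failed estimate where transcripts overlap, and none of these patterns was tested.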
